A study of Mus musculus with 8 samples.

Results

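The Sema5b and Sulf1 dopamine nuclei were the 202 nuclei of adult mouse midbrain in which Sema5b, Sulf1, Unc5d, Pdia5 and Kcnk9 were jointly highest, out of 4045 dopamine nuclei that passed 2 gates and 5740 nuclei in all. A nucleus was gated when it held at least 5000 UMIs (unique molecular identifiers, each standing for 1 captured transcript) and at least 5 UMIs of Th, Slc6a3, Slc18a2 and Ddc together per 10000. In each gated nucleus the log levels of the 5 genes were converted to z-scores over all gated nuclei and averaged, and the top 5% by this score are called members here. Members made up 105 of 2785 gated nuclei of the PRC2 mutant and 97 of 1260 gated nuclei of wt, and the remaining 2680 mutant and 1163 wt gated nuclei are the set they are compared with.

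The nuclei came from mice of the strain labelled DatCreEed, with the genotype given as PRC2 mutant or as wt, all 8 months old. For each genotype, nuclei of 2 female mice and 1 male mouse were pooled, sorted by flow cytometry and sequenced as 1 droplet library over 4 flow cell lanes, which are not replicates. The strain name joins Dat, the dopamine transporter gene whose promoter drives Cre recombinase in dopamine neurons, with Eed, a core subunit of the complex. The labels used here do not give the deleted exons or the Cre and Eed alleles of the wt mice. With 1 library per genotype no comparison has a replicate check or a p-value, and genotype, pool of mice and library cannot be told apart. Intervals are exact 95% binomial intervals that cover counting error only.

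Polycomb repressive complex 2 (PRC2) methylates histone H3 at silenced genes and keeps regulators of other cell types and of embryonic patterning, the Hox genes among them, turned off in differentiated cells. It acts in mammals mainly at promoters rich in the dinucleotide CG. Midbrain dopamine neurons fall into several types, among them a ventral nigral type marked by Sox6 and Aldh1a1 and tegmental types marked by genes such as Otx2 and Slc17a6, and they differ in their firing, targets and vulnerability. Of the 5 genes that chose the members, Sema5b encodes a transmembrane semaphorin used in axon guidance, Unc5d a netrin-family repulsive receptor and Sulf1 an extracellular sulfatase that trims heparan sulfate. Pdia5 encodes a protein disulfide isomerase of the endoplasmic reticulum and Kcnk9 a leak potassium channel.

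Sema5b lies at chr16:35541145-35664732 on the plus strand and Pdia5 at chr16:35397312-35490873 on the minus strand (mm10), so that both are transcribed away from each other with 50271 bases between them and 0 coding genes in that gap, which holds 1 long noncoding RNA gene. Sulf1 lies at chr1:12692277-12861192, Unc5d at chr8:28646717-29219636 and Kcnk9 at chr15:72501089-72546340. The promoters of the divergent neighbours are shown because their transcripts varied together more than any other pair of the 5 genes. Each is 300 bases from RefSeq (GRCm38.p6), with every CG, the only motif searched and the same on both strands, in capitals. The Sema5b promoter is chr16:35541112-35541411, plus strand, and the Pdia5 promoter is chr16:35490824-35491123, minus strand.
Sema5b: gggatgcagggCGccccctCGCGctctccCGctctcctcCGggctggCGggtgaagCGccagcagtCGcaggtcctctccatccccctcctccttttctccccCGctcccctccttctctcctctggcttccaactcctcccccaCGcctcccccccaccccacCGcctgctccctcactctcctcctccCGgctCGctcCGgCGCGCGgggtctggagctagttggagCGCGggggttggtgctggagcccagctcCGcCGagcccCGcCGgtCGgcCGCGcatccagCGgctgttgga
Pdia5: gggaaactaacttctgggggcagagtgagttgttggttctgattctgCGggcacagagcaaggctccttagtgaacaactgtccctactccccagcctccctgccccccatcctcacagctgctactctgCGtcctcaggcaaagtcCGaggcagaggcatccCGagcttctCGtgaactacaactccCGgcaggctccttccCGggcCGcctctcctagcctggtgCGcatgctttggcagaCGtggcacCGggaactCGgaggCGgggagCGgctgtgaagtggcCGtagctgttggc
The Sema5b sequence holds 27 CG, and 15.5% of 32851 promoters of this length hold as many. The Pdia5 sequence holds 15, and 34.6% of promoters hold as many, against a median of 7. Over the 4045 gated nuclei the log levels of Sema5b and Pdia5 correlated with Pearson's r = 0.648 (0.590 in the mutant library and 0.724 in the wt library), and the other 9 pairs of the 5 genes had r of 0.286 to 0.431. These are descriptions over nuclei that share a library, vary in depth and were used to choose the members.

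The 5 genes chose the members, so their levels in members describe the rule and are no test. Levels are given as counts per 1000000 (CPM), for which the UMIs of a gene are summed over a set of nuclei and scaled by all UMIs of that set. Sema5b stood at 588 CPM in mutant members and 797 CPM in wt members, against 37.5 CPM in the other mutant nuclei and 44.2 CPM in the other wt nuclei. Sulf1 stood at 333 CPM in mutant members and 473 CPM in wt members, against 29.6 and 36.1 CPM in the other mutant and wt nuclei. These were the steepest of the 5, 15.7-fold and 18.0-fold for Sema5b and 11.3-fold and 13.1-fold for Sulf1 in the mutant and the wt library. Unc5d was 8.29-fold and 7.67-fold higher, Pdia5 8.46-fold and 7.46-fold, and Kcnk9 6.48-fold and 5.06-fold higher than in the other nuclei of the mutant and the wt library.

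Members were not uniform in these genes. Of the 202, 155 carried at least 1 UMI of all 5, 45 carried 4 and 2 carried 3. Sema5b was missing from 3 mutant and 1 wt members and Sulf1 from 13 mutant and 6 wt members. Per 10000 UMIs, the quartiles of Sema5b were 2.76, 5.77 and 8.31 UMIs in mutant members and 4.34, 6.43 and 11.8 UMIs in wt members. For Sulf1 the quartiles were 1.13, 2.95 and 5.11 in mutant members and 1.67, 4.64 and 7.5 in wt members. The distributions of the 2 genotypes thus overlapped over most of their range for each of these genes. The score of the lowest member was 1.517 and that of the highest nucleus outside was 1.516, so the boundary cut a continuous range. Among the 20 lowest members 8 carried all 5 genes, and among the 20 highest nuclei outside 9 did.

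**Figure D1:**
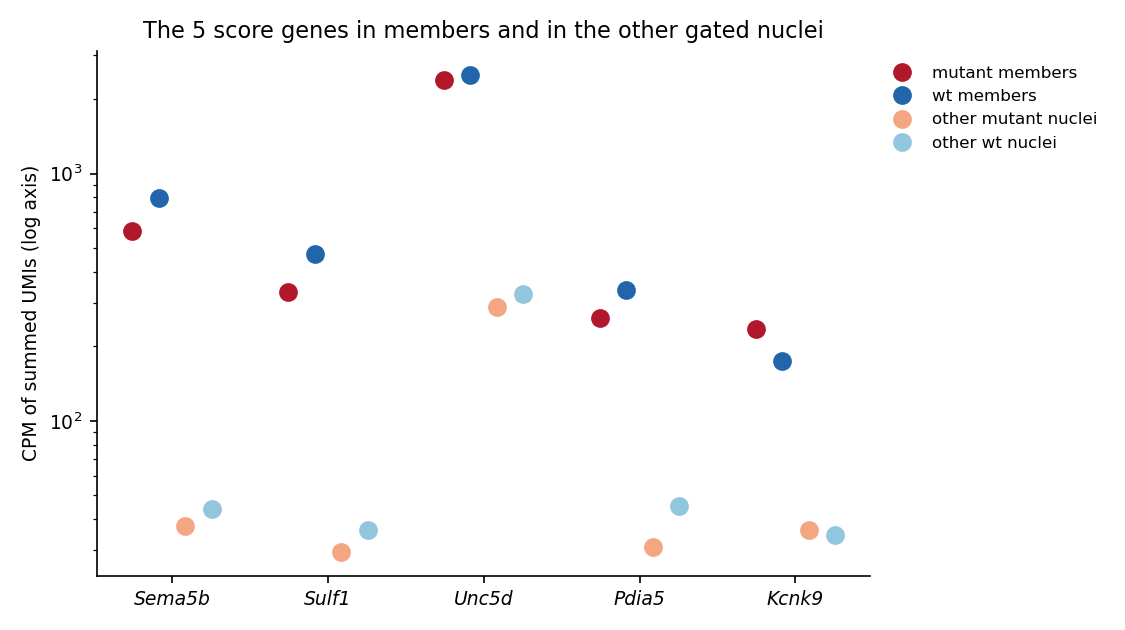
Summed level (CPM, log axis) of Sema5b, Sulf1, Unc5d, Pdia5 and Kcnk9 in mutant members, wt members, the other mutant nuclei and the other wt nuclei, 1 point per set. Both member points lie above both points of the other nuclei for each gene, as the rule requires, and for Sema5b they are 588 CPM in mutant members and 797 CPM in wt members.

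Each of the 5 genes was also read in nuclei chosen without it. With members chosen by the other 4 genes, Sema5b was 12.3-fold higher in members than in the other nuclei of the mutant library and 15.7-fold higher in the wt library. In the same way the gene left out was 7.64-fold and 8.94-fold higher for Sulf1, 6.85-fold and 7.33-fold for Unc5d, 7.19-fold and 6.43-fold for Pdia5, and 4.53-fold and 4.14-fold for Kcnk9. The 5 genes vary together over these same gated nuclei, so a left-out gene was bound to be higher and these folds are no test. Between 166 (82.2%, without Sulf1) and 183 (90.6%, without Unc5d) of the 202 members were chosen again, an overlap that is largely built in because the scores share 4 of their 5 genes. Members also lay near each other in the rest of the transcriptome. Among the 15 nearest neighbours of each nucleus, found per library without the 5 genes, 52.4% of the neighbours of mutant members and 70.9% of those of wt members were members, against 1.73% and 1.82% for the other mutant and wt nuclei. Of the mutant members 72 (68.6%) and of the wt members 76 (78.4%) had at least 5 members among their neighbours, while 5 mutant and 3 wt members had none. At least 5 member neighbours were also found for 55 of the other mutant nuclei and 15 of the other wt nuclei. Genes that vary with the 5 genes in these same nuclei were kept in this step, so it describes the members and is no test.

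Members were a smaller share of the mutant nuclei. They were 3.77% (3.09 to 4.55) of gated mutant nuclei and 7.70% (6.29 to 9.31) of gated wt nuclei, a ratio of 0.490 (0.368 to 0.652). In nuclei with at least 3 Xist UMIs and no Y-linked UMI the shares were 3.80% (71 of 1868) in the mutant and 9.24% (64 of 693) in wt, and in nuclei with Y-linked and fewer Xist UMIs they were 4.58% (14 of 306) in the mutant and 8.11% (15 of 185) in wt, a ratio whose interval (0.252 to 1.25) holds equal shares. The score was built from levels, and over all gated nuclei the mutant over wt fold was 0.625 for Sema5b, 0.640 for Sulf1, 0.610 for Pdia5, 0.777 for Unc5d and 0.991 for Kcnk9. Fewer such nuclei and less of these transcripts per nucleus therefore cannot be told apart in this share. Gating kept 70.2% of mutant nuclei and 71.1% of wt nuclei.

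Depth differed along with the groups. The library totals were 88201326 UMIs over 3968 mutant nuclei and 46540890 UMIs over 1772 wt nuclei. The median nucleus held 13696 UMIs among mutant members and 18118 among wt members, against 19930 and 26010 in the other mutant and wt gated nuclei. The summed counts behind the levels were 1663919 UMIs in mutant members and 1945154 in wt members, so 1 UMI was worth 0.601 CPM and 0.514 CPM. The libraries shared 4 barcodes, which tagged 8 nuclei, 0 of them members. Doublets were not called. Nuclei with both Xist and Y-linked transcripts, which a pool of both sexes allows as a sign of doublets or free RNA, were 15.2% of mutant members, 18.6% of wt members, 20% of the other mutant nuclei and 29.1% of the other wt nuclei.

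Outside the genes of the rule, members of both libraries were high in Gm2694, Cbln1, Htr2a, Lepr and Ndst3 and low in nigral-type genes such as Sox6 and Aldh1a1. A gene with at least 50 UMIs was counted when it differed at least 2-fold from the other gated nuclei in both libraries, on the log2 scale with 5 CPM added. By this count 75 of 13787 genes (0.544%) were higher in members, the 5 score genes included, and 120 (0.87%) were lower. With the top 10% of nuclei as members these counts were 49 and 53, and with the top 2.5% 298 genes were lower. The same nuclei were scored and compared, so these counts describe the members and test nothing.

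With 5 CPM added, the steepest gene outside the rule was the noncoding Gm2694 (chr8:87460469-87525554, plus strand), with 120 CPM in mutant members and 170 CPM in wt members against 23.3 and 11.7 CPM in the other mutant and wt nuclei. Cbln1 (chr8:87468405-87472609, minus strand), which encodes a secreted synapse organiser that bridges neurexins and glutamate delta receptors, lies inside Gm2694 on the opposite strand. It stood at 20.4 and 30.3 CPM in mutant and wt members, against 3.13 and 1.98 CPM in the other mutant and wt nuclei. Whether strand was used in the counting is not stated here, so reads of this antisense pair cannot be told apart. Htr2a (chr14:74640840-74709494), a serotonin receptor, was at 42.1 and 42.7 CPM in mutant and wt members, against 6.18 and 8.12 CPM in the other mutant and wt nuclei. Lepr (chr4:101717404-101815352), the leptin receptor, was at 98.0 and 175 CPM in mutant and wt members, against 25.1 and 54.3 CPM in the others. Both receptors were thus higher in members of either genotype, and Lepr was lower in mutant than in wt members, with a fold of 0.560 (0.462 to 0.677).

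Ndst3 (chr3:123526166-123690853), a heparan sulfate deacetylase and sulfotransferase, reached 603 CPM in mutant members and 772 CPM in wt members, 3.64-fold and 3.80-fold over the other nuclei. Il1rapl2 and Il1rapl1, adhesion molecules of the interleukin receptor family on the X chromosome, were 3.52-fold and 4.21-fold, and 3.13-fold and 3.03-fold higher in the mutant and wt library. Cdh4, a cadherin, was 3.06-fold and 3.84-fold higher, and Negr1, a GPI-anchored adhesion molecule, 2.96-fold and 2.89-fold. The acid-sensing channel gene Asic2 was 4.05-fold and 3.1-fold higher and the calcium-binding protein gene Necab1 3.16-fold and 4.04-fold. The other leading genes were Nckap5, Palld, which encodes an actin-binding protein, B3glct, a glucosyltransferase, and Cpne5, a calcium-dependent lipid-binding protein. They were between 3.28-fold and 4.74-fold higher in the mutant library and between 3.81-fold and 4.06-fold higher in the wt library.

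The members were low in ventral nigral genes. Of 11 nigral-type genes measured, 8 were at least 1.5-fold lower in members of both libraries and 0 were higher, where 2.24% of 17410 genes were lower and 1.1% higher by the same count. The list's median log2 ratio was -1.06 in the mutant and -1.42 in the wt library, against -0.06 and -0.04 over all genes. Sox6 (chr7:115470872-116038796), the transcription factor of ventral nigral neurons, stood at 145 and 183 CPM in mutant and wt members, against 450 and 446 CPM in the other mutant and wt nuclei. Aldh1a1 (chr19:20492715-20643465), which oxidises the aldehyde of dopamine, stood at 1.80 and 21.1 CPM in mutant and wt members, against 98.5 and 196 CPM in the others, with only 3 UMIs in mutant members. The potassium channel subunit gene Kcns3 was 8.29-fold lower in the mutant library and 7.97-fold lower in the wt library. Of 13 tegmental-type genes 4 were lower and 0 were higher, and Otx2 had 2 UMIs in mutant members and 2 in wt members. The tegmental list's median log2 ratio was -0.31 in the mutant and -0.41 in the wt library. As a sum the list stood higher in members, 1.36-fold (1.30 to 1.42) in the mutant and 1.21-fold (1.16 to 1.27) in the wt library.

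Among other genes that were low, Col25a1, a membrane collagen, had 48.7 and 101 CPM in mutant and wt members against 878 and 1118 CPM in the other mutant and wt nuclei. Cdh8, a cadherin, was 6.78-fold lower in the mutant library and 7.33-fold lower in wt, and Kcnab1, a potassium channel subunit, 7.27-fold and 7.67-fold lower. Of 14 regulators of midbrain dopamine neurons, 2 were higher and 4 were lower in members of both libraries. Ebf3 was at 461 and 580 CPM in mutant and wt members against 167 and 206 CPM in the others, and Lmx1a, needed to specify the lineage, at 247 and 276 CPM against 96.8 and 106 CPM. Ebf1, a close relative of Ebf3, went the other way with 19.8 and 25.2 CPM in mutant and wt members against 144 and 129 CPM in the others.

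**Figure D2:**
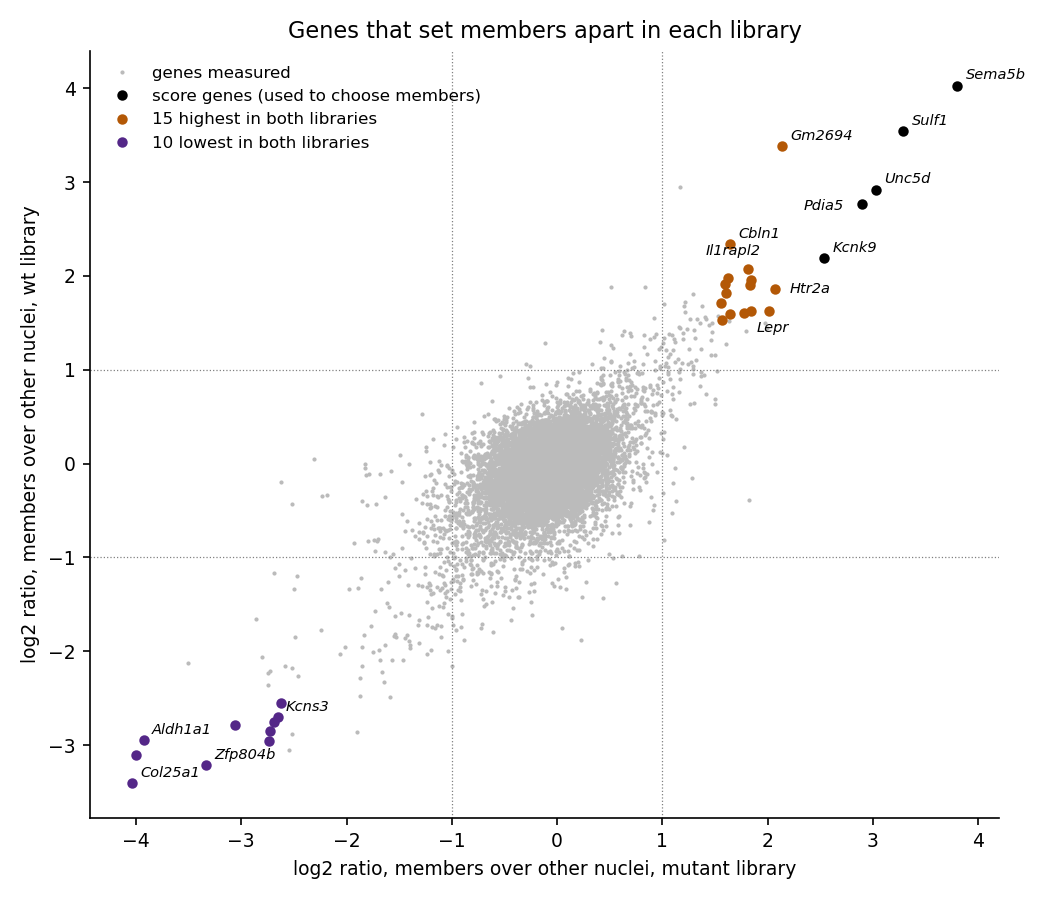
Log2 ratio (5 CPM added) of members over the other gated nuclei, mutant library on the horizontal and wt library on the vertical axis, 1 point per gene, with lines at 2-fold. The 5 score genes and the 15 highest genes lie at the upper right and the 10 lowest, such as Col25a1, Aldh1a1 and Kcns3, at the lower left in both libraries.

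Counts here stand beside the 1.1% of 17410 genes that were higher and the 2.24% that were lower in members of both libraries. Most genes in the families of the 5 genes did not pass, and the families' median log2 ratios lay between -0.39 and 0.07. The family sums, which hold the score genes, were between 1.12-fold and 1.75-fold higher in the mutant library and between 1.16-fold and 1.77-fold higher in wt. Of 29 semaphorin, plexin and neuropilin genes, 2 were higher, Sema5b and Plxnc1, a semaphorin receptor (170 and 139 CPM in mutant and wt members, 67.7 and 63.0 CPM in the others), and Nrp1 was lower. Of 19 netrin, Slit and partner genes, Unc5d was higher and Ntn4 was lower. Of 32 heparan sulfate genes 4 were higher, Sulf1, Ndst3, Ndst4 and Gpc6, and 5 were lower, among them the sulfotransferase gene Hs6st3 with 234 and 127 CPM in mutant and wt members against 888 and 951 CPM in the others. Pdia5 was the only one of 27 protein folding genes to be higher, and 0 were lower. Of 10 leak potassium channel genes Kcnk9 and Kcnk13 were higher. Among 19 Eph receptor and ephrin genes 3 were higher and 3 were lower, and the receptor genes Epha4, at 21.6 and 33.4 CPM in mutant and wt members against 148 and 168 CPM in the others, and Epha7 were among the low ones. None of 31 genes of pacemaking channels passed in either direction. Of 44 receptor genes 4 were higher, Htr2a, Lepr, Grm8 and Ntrk3, and 7 were lower, among them Chrna6, a nicotinic receptor subunit of dopamine neurons.

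In mutant members, Gad1 and Slc6a5 of inhibitory transmission and several noncoding RNAs stood far above their level in wt members. Developmental regulators as a sum stood above their level in wt members. Dopamine genes and markers of oligodendrocytes and astrocytes stood below theirs. A gene with at least 50 UMIs in members was counted at 2-fold, and 52 of 7480 genes (0.695%) were higher and 39 (0.521%) lower in mutant than in wt members. The minimum was a sum over both genotypes, so a gene could pass it through 1 genotype alone, which fixed its direction. In the other gated nuclei 157 of 16235 genes (0.967%) were higher and 52 (0.32%) lower. Both comparisons rest on the same pair of libraries, so their values are given side by side and neither checks the other. With a gate of at least 10 UMIs of the dopamine genes per 10000, 32 genes were higher, with the top 5% taken within each library 151 were, and with the top 10% of nuclei 87 were higher and 63 lower.

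Eed itself, the gene in the strain name, stood at 40.9 CPM in mutant members (68 UMIs) and 28.8 CPM in wt members (56 UMIs), a fold of 1.42 (0.982 to 2.06), against 41.2 and 20.9 CPM in the other mutant and wt nuclei. The tags read the end of the transcript and the labels do not name the deleted part, so this level checks nothing about the labels. Of 11 genes of PRC2 and its partners 0 passed 1.5-fold in either direction, where 5.6% of 11886 genes were higher and 5.16% lower. Of the same genes 1.85% were higher and 1.83% lower in the other mutant nuclei than in the other wt nuclei.

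The largest differences were of transcripts close to absent in wt. The noncoding 1700018A04Rik (chr13:31565492-31625792) had 139 UMIs in mutant members and 0 in wt members, which is at least 54.2-fold higher with 3 counts over all wt members taken as the floor. Gm12688 (chr4:99653607-99654983), also noncoding, had 101 UMIs in mutant members and 0 in wt members, at least 39.4-fold higher. Slc6a5 (chr7:49910146-49963856), the neuronal glycine transporter that marks glycinergic neurons, had 75 UMIs in mutant members and 0 in wt members, at least 29.2-fold higher. Gad1 (chr2:70553072-70602014), which makes GABA, had 90 UMIs in mutant members and 1 in wt members, 54.1 and 0.514 CPM, a ratio of 105.2 with a counting interval of 18.4 to 4201, and it overlaps the antisense gene Gad1os. In the other nuclei Slc6a5 stood at 74.1 CPM in the mutant and 0.134 CPM in wt, and Gad1 at 101 CPM in the mutant and 4.37 CPM in wt.

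The promoters of Slc6a5 and Gad1 are shown because these genes of inhibitory transmission were at or near 0 in wt members. They are RefSeq windows of 300 bases (GRCm38.p6), with CG in capitals, at chr7:49910049-49910348 (plus strand) and chr2:70561879-70562178 (plus strand).
Slc6a5: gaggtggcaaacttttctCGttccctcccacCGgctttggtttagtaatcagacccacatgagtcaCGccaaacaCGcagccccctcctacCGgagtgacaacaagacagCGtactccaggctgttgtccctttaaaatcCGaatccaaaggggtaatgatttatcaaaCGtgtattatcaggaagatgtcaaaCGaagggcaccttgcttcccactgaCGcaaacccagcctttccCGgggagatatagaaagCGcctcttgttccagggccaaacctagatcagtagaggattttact
Gad1: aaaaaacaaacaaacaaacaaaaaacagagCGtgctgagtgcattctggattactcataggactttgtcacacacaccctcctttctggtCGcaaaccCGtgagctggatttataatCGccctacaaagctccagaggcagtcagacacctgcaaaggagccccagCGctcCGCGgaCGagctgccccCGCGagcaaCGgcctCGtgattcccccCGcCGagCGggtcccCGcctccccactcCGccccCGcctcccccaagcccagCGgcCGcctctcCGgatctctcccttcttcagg
The Slc6a5 window holds 12 CG, which 39.6% of promoters match or exceed, and the Gad1 window holds 21, which 24.8% match or exceed. Of 8 transmission genes for GABA, glycine, glutamate and acetylcholine measured in members 5 were higher in the mutant and 0 lower, where 5.6% of all genes were higher and 5.16% lower. Of the 5, Slc6a5 and Slc32a1 had 0 UMIs in wt members and Gad1 had 1. These genes passed the minimum of 10 UMIs through mutant members alone, which fixed their direction. The whole list summed to 680 CPM in mutant members and 571 CPM in wt members, a fold of 1.19 (1.10 to 1.29), and to 766 and 538 CPM in the other mutant and wt nuclei. Slc17a6, a vesicular glutamate transporter, stood at 50.5 CPM in mutant members and 20.05 CPM in wt members, and Gad2 at 67.3 CPM in mutant and 40.1 CPM in wt members. Slc32a1, the vesicular transporter of GABA and glycine, had 12 UMIs in mutant members and 0 in wt members.

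Onecut2 (chr18:64340020-64400987), a homeobox factor, stood at 172 CPM in mutant members and 13.9 CPM in wt members, a fold of 12.4 (8.33 to 19.1), and at 172 and 11.8 CPM in the other mutant and wt nuclei. Sfmbt2 (chr2:10370510-10595253), a Polycomb group protein, stood at 219 CPM in mutant members and 28.8 CPM in wt members, 7.62-fold (5.74 to 10.3), and at 219 and 35.5 CPM in the others. In both sets of mutant nuclei these genes stood well above their level in wt. Ccnd2, a cyclin, was at 45.1 CPM in mutant and 2.57 CPM in wt members, and Emx2os, antisense to the homeobox gene Emx2, at 30.7 CPM in mutant and 0.514 CPM in wt members. 9530026P05Rik, antisense to Adamts9, was at 176 CPM in mutant and 43.7 CPM in wt members. Cntnap3, a neurexin-like adhesion molecule, was at 58.3 CPM in mutant and 10.8 CPM in wt members, against 24.8 and 17.8 CPM in the other mutant and wt nuclei.

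A few nuclei carried the rise of 2 of the 12 highest genes. Hs3st4, a heparan sulfate sulfotransferase, had 146 CPM in mutant and 24.2 CPM in wt members, but 5 nuclei held 84.0% of the mutant UMIs. Meis2, a homeobox factor, had 27.6 CPM in mutant and 3.60 CPM in wt members, with 87.0% of the mutant UMIs in 5 nuclei.

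**Figure D3:**
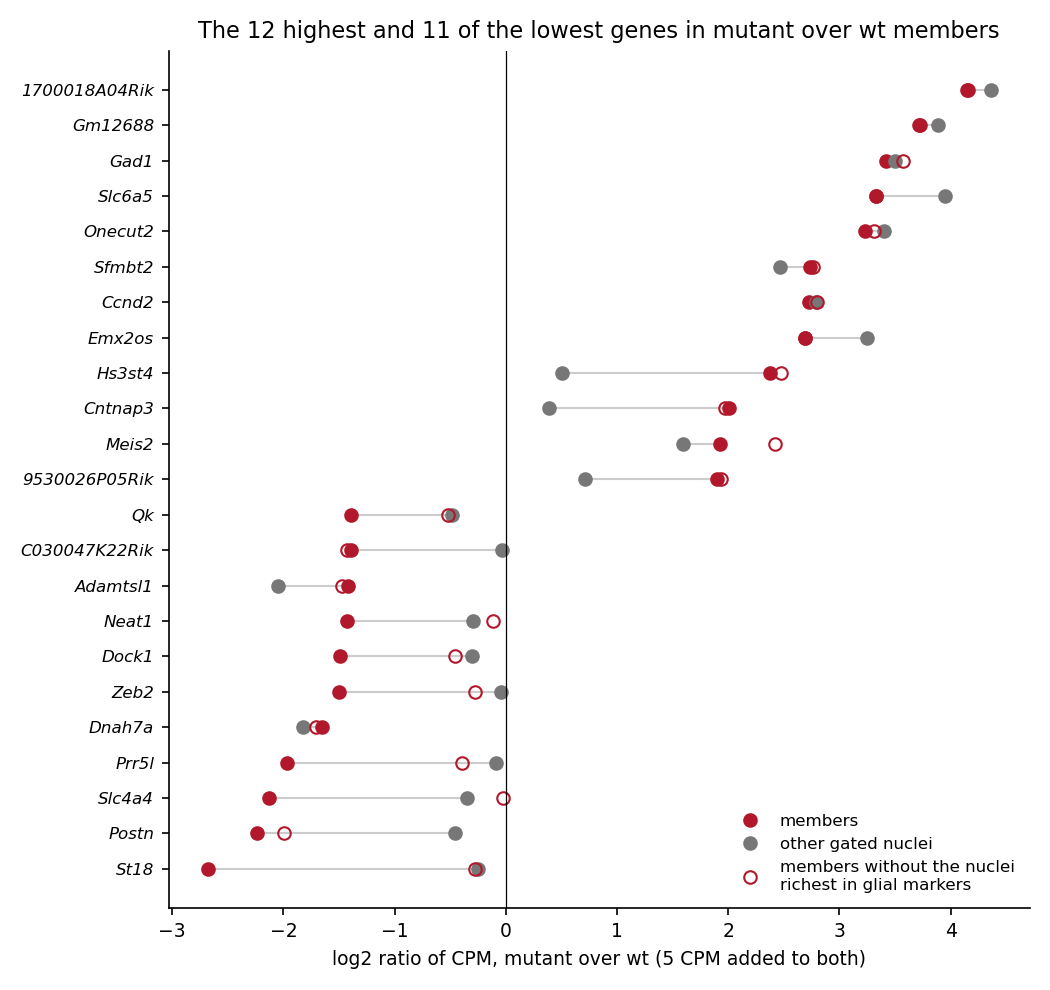
Log2 ratio of mutant over wt (5 CPM added) for the 12 highest and 11 of the 12 lowest genes, in members (filled red), in the other gated nuclei (grey) and in members without the nuclei richest in glial markers (open red). Onecut2 and Sfmbt2 have similar ratios in the 3 sets, and Hs3st4 and Cntnap3 are higher in members than in the other nuclei. St18, itself a marker used to leave nuclei out, moves to -0.27 without the glial-rich nuclei.

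Developmental regulators, summed over every gene of their lists, stood higher in mutant than in wt members and also differed in the other nuclei. Homeobox regulators outside the Hox clusters summed to 1332 CPM in mutant members and 786 CPM in wt members, a fold of 1.70 (1.59 to 1.81), and to 1570 and 697 CPM in the other mutant and wt nuclei. Other developmental regulators summed to 437 CPM in mutant members and 101 CPM in wt members, a fold of 4.31 (3.68 to 5.08), and to 670 and 77.3 CPM in the other mutant and wt nuclei. Of 33 homeobox regulators with at least 10 UMIs in members, 24 were at least 1.5-fold higher and 2 lower in mutant than in wt members, where 5.6% of all genes were higher and 5.16% lower, and 26 were higher and 2 lower in the other nuclei. Of 23 other developmental regulators with as many UMIs 19 were higher and 0 lower in members, and likewise 19 and 0 in the other nuclei. The median log2 ratios with 5 CPM added were 1.15 and 1.36 in members for these lists and 1.59 and 1.81 in the other nuclei, against 0.02 and 0.03 over all genes. In wt members 13 of these homeobox and 10 of these other regulators had 0 UMIs and passed the minimum through mutant members alone, so the counts and medians describe the genes that passed and support nothing. With these genes at a floor of 3 counts, and no CPM added, the members' medians were 2.73 and 2.89. Among nuclei with Y-linked UMIs and few or no Xist UMIs, 14 mutant and 15 wt members, the median of the other developmental regulators was -0.46.

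Among the homeobox genes Lhx2, a factor of forebrain and eye, stood at 18.6 CPM in mutant members against 0 in wt members, and Pitx1, a hindlimb and pituitary factor, at 19.2 CPM against 0. Pax6 was at 21.0 CPM in mutant members and 1.03 CPM in wt members. Among the others, Tbx20 and Gata4, cardiac factors, were at 19.8 and 16.2 CPM in mutant members and at 0 in wt members, and Sim2 was at 19.2 CPM in mutant members and 0 in wt members. Tbx15 was at 16.8 CPM in mutant members and 1.03 CPM in wt members, against 65.0 CPM in the other mutant nuclei. Ebf2 was at 138 CPM in mutant members and 53 CPM in wt members, and at 45.5 and 30.9 CPM in the other mutant and wt nuclei. The regulators of the 3 lists together, Hox genes included, were 2.07-fold (1.95 to 2.20) higher in mutant than in wt members.

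Hox genes, which give cells their position along the body axis and are normally off in the midbrain, were present in mutant members but far lower than in the other mutant nuclei. They summed to 70.9 CPM in mutant members and 0 in wt members (at least 46.0-fold higher at the same floor), while the other mutant nuclei held 538.5 CPM. The members' level was 0.132 (0.109 to 0.158) of that of the other mutant nuclei. A Hox UMI was found in 35 of 105 mutant members (33.3%) and in 2221 of 2680 other mutant nuclei (82.9%). Members were shallower, so each nucleus was thinned to 5000 UMIs, and the shares were then 19% (12 to 27.9) in mutant members and 69.7% (67.9 to 71.4) in the other mutant nuclei. In wt members 0 of 97 nuclei had a Hox UMI, which allows a share of up to 3.09% by a floor of 3 nuclei, and an exact 95% binomial interval reaches 3.73%. With the top 2.5% of nuclei as members the ratio of members to the other mutant nuclei was 0.0721, and with the top 10% it was 0.297. Within bins of depth, full counts gave 6 of 32 (18.8%) in members against 58.6% in the others for the shallowest, 15 of 49 (30.6%) against 76.7% for the middle and 14 of 24 (58.3%) against 94.5% for the deepest nuclei.

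Of the 31 Hox genes in the table, 4 had at least 10 UMIs in members. Each had 0 UMIs in wt members and so passed this minimum through the mutant members alone, which fixed its direction. Hoxc4 (chr15:103018934-103036852) had 28 UMIs in mutant members and 0 in wt members, 16.8 CPM in mutant members against 121 CPM in the other mutant nuclei. Hoxc5 had 21 UMIs in mutant members and 0 in wt members, and its span overlaps Hoxc6, Hoxc8, Hoxc9 and Hoxc10 on the same strand, so its tags may be split among them. Hoxd11 had 13 UMIs in mutant members and Hoxa7 had 12, both with 0 in wt members. The 118 Hox UMIs of mutant members were concentrated, with 69 (58.5%) in 5 nuclei, while 70 members had none, 17 had 1, 12 had 2 to 4 and 6 had at least 5. Among the other mutant nuclei 1602 (59.8%) had at least 5.

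**Figure D4:**
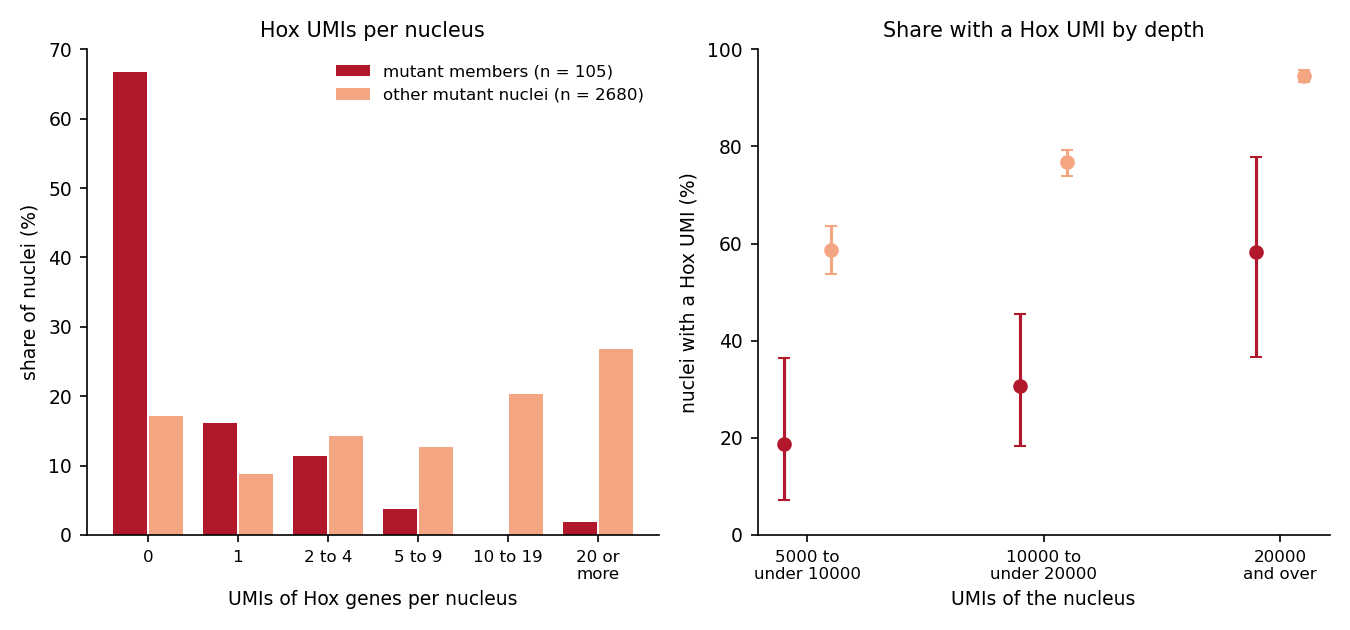
Left, share of nuclei (%) by their number of Hox UMIs, and right, share of nuclei (%) with a Hox UMI by depth with exact 95% binomial intervals, in mutant members and in the other mutant nuclei. Of the members 70 of 105 have no Hox UMI, and members lie below the other nuclei in each depth bin (18.8% against 58.6% in the shallowest).

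Pax3 and Pax2, homeobox factors of the dorsal neural tube and of the midbrain-hindbrain boundary, were likewise lower in mutant members than in the other mutant nuclei. Pax3 stood at 19.8 CPM in mutant members and 0 in wt members, against 101 CPM in the other mutant nuclei, and all 33 of its UMIs in members lay in the 35 members with a Hox UMI. Pax2 stood at 6.01 CPM in mutant members and 0 in wt members, against 53.5 CPM in the other mutant nuclei. In contrast, the 70 mutant members without a Hox UMI held 166 CPM of Onecut2, 194 CPM of Sfmbt2, 69.5 CPM of 1700018A04Rik, 41.7 CPM of Gad1 and 43.9 CPM of Slc6a5. The 35 members with a Hox UMI held 180, 252, 102, 70.0 and 46.6 CPM of the same 5 genes, so members with and without a Hox UMI both carried these transcripts. The fold of members with over members without a Hox UMI was 1.68 (1.08 to 2.61) for Gad1. It was 1.46 (1.03 to 2.07) for 1700018A04Rik and 1.30 (1.06 to 1.61) for Sfmbt2. For Onecut2 at 1.08 (0.852 to 1.38) and Slc6a5 at 1.06 (0.655 to 1.72) the interval held 1. Slc6a3 was at 85.1 CPM in members with a Hox UMI and 191 CPM in those without, a fold of 0.444 (0.327 to 0.596). This split was chosen after the values were seen, and members with a Hox UMI were more often the deep ones, as the shares by depth show.

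Free RNA in the droplets bears on genes read in few copies. In nuclei rich in oligodendrocyte transcripts, 48 mutant and 40 wt nuclei with median depths of 4265 and 4301.5 UMIs, and with all nuclei thinned to 2000 UMIs, Onecut2 was found in 24.8% of mutant members and 4.17% of mutant oligodendrocyte nuclei. Sfmbt2 was found in 28.6% of mutant members and 4.17% of these nuclei, and 1700018A04Rik in 18.1% and 0 of them. Gad1 was found in 8.57% of mutant members against 4.17%, and Slc6a5 and Hoxc4 each in 2.86% against 0, which rest on few nuclei at this depth. Pax3, at 3.81% against 4.17%, did not stand above this background. Sema5b was found in 68.6% of mutant members against 4.17%. For Onecut2 the background was not low in the wt library, at 12.5% of oligodendrocyte nuclei against 2.06% of wt members. At full depth Onecut2 was found in 27.1% of mutant and 25% of wt oligodendrocyte nuclei, and in 76.2% and 20.6% of mutant and wt members.

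The dopamine genes were lower in mutant members, though the gate asked for 4 of them. Of 15 genes of dopamine synthesis, storage, uptake and breakdown, a list that also holds the receptor gene Drd2, 0 were higher and 5 lower in mutant than in wt members, and 0 and 6 in the other nuclei. The list summed to 1819 CPM in mutant members and 2527 CPM in wt members, a fold of 0.720 (0.687 to 0.753), and to 1889 and 3232 CPM in the other mutant and wt nuclei. Its median log2 ratio was -0.46 in members and -0.44 in the other nuclei. Most of the sum came from the 4 gate genes, whose levels the gate had bounded from below. With at least 10 gate UMIs per 10000 the members' fold was 0.823. Th, the rate-limiting enzyme, stood at 67.3 CPM in mutant members and 160 CPM in wt members, and at 74.8 and 179 CPM in the other mutant and wt nuclei. Slc18a2, the vesicular transporter, stood at 397 CPM in mutant members and 755 CPM in wt members, and Ddc, which makes dopamine from its precursor, at 867 CPM in mutant members and 922 CPM in wt members. Gch1, which supplies the cofactor of Th, was at 22.2 CPM in mutant members and 43.2 CPM in wt members.

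The dopamine transporter gene Slc6a3 (chr13:73536747-73578672) stood at 145 CPM in mutant members and 211 CPM in wt members, a fold of 0.687 (0.584 to 0.808), against 192 and 505 CPM in the other mutant and wt nuclei, a fold of 0.381. The wt members thus already had a low Slc6a3 level among wt nuclei. Whether the mutant over wt folds of members and of the other nuclei differ was not tested. Of 13 regulators of midbrain dopamine neurons 0 were higher and 1 was lower, En1, a homeobox survival factor, at 26.4 CPM in mutant members and 49.4 CPM in wt members. Of 9 nigral-type genes 4 were lower and 0 higher, although the median of this list turned to 0.10 on the log2 scale with the top 5% taken within each library. No noradrenaline or cholinergic marker had a UMI in members.

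**Figure D5:**
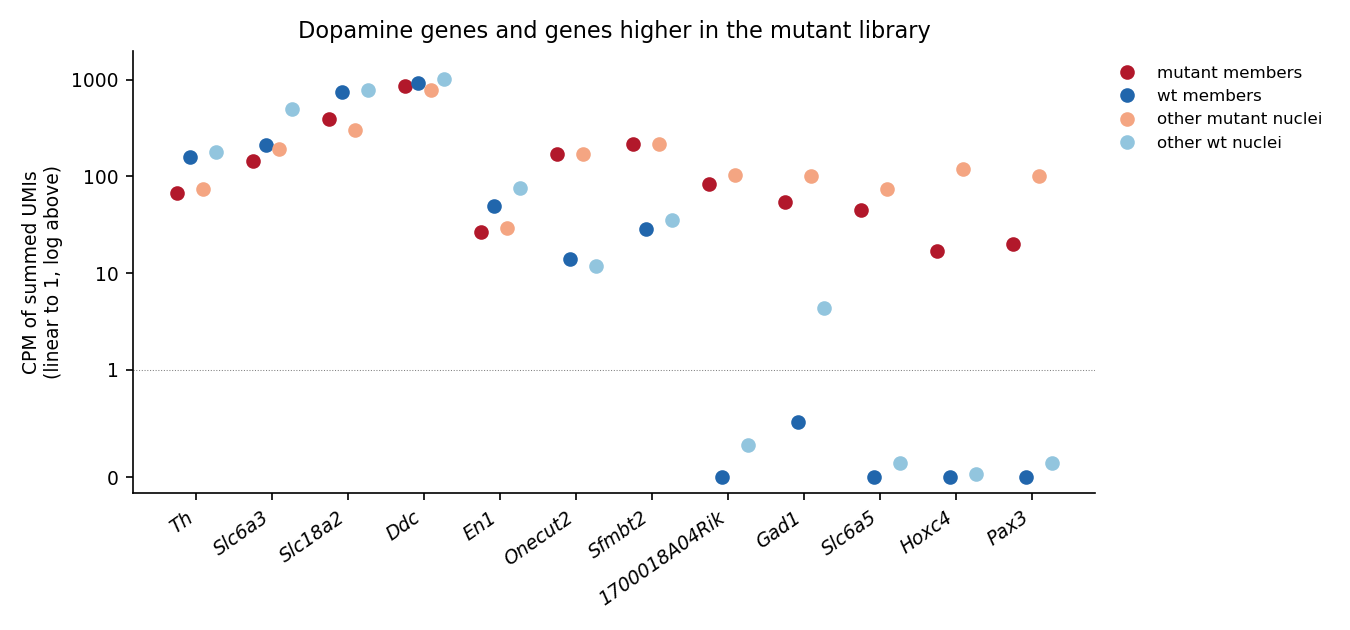
Summed level (CPM, linear up to 1 and logarithmic above) of dopamine genes and of genes higher in the mutant library, in mutant members, wt members, the other mutant nuclei and the other wt nuclei, 1 point per set. Onecut2 is at 172 CPM in mutant members and 13.9 CPM in wt members, and Th is at 67.3 CPM in mutant members and 160 CPM in wt members.

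Counts of guidance and excitability genes stand here beside the 5.6% of all genes that were higher and the 5.16% that were lower in members, and a share near these is no result about a list. Of 17 netrin, Slit and partner genes 5 were higher in mutant than in wt members and 0 lower, while 1 was higher and 1 lower in the other nuclei. The list, which holds the score gene Unc5d, summed lower in mutant members, with a fold of 0.945 (0.928 to 0.963). Among the 5 higher genes were the repulsive ligand genes Slit3, at 97.4 CPM in mutant members and 35 CPM in wt members, and Slit1, at 117 and 65.8 CPM. In the other nuclei Slit3 stood at 102 CPM in the mutant and 64.2 CPM in wt. Ephb1, an Eph receptor, stood at 184 CPM in mutant members and 76.6 CPM in wt members, while the other mutant and wt nuclei held 76.8 and 67.3 CPM. Of 13 Eph and ephrin genes 1 was higher and 1 was lower, of 27 semaphorin genes 1 and 2, of 27 heparan sulfate genes 3 and 0, of 23 protein folding genes 3 and 1, and of 7 leak potassium channel genes 0 and 0. Of 29 pacemaking channel genes 2 were higher, Cacna1i, a T-type calcium channel, at 21.0 CPM in mutant members and 4.11 CPM in wt members, and Kcnn2, a calcium-activated potassium channel, at 445 CPM in mutant members and 280.2 CPM in wt members.

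Of 38 receptor genes 6 were higher and 6 lower in mutant than in wt members, beside the same 5.6% and 5.16% of all genes. In the other nuclei 0 were higher and 7 lower, beside 1.85% and 1.83%. Chrm2, a muscarinic receptor, was at 42.7 CPM in mutant members and 17 CPM in wt members. Ntsr1, a neurotensin receptor, was at 52.9 CPM in mutant and 111 CPM in wt members, and Tacr3, a tachykinin receptor, at 12.6 CPM in mutant and 33.9 CPM in wt members. Of 12 cell cycle inhibitor and related genes 1 was higher and 1 lower, beside the same shares of all genes. The higher gene was Cdkn2a, a known target of PRC2, with 18 UMIs in mutant members and 1 in wt members. Cdkn2a passed the minimum of 10 UMIs through mutant members alone, which fixed its direction. The lower gene was Trp53. None of 6 immediate early genes and none of 2 neuropeptide genes passed in either direction.

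Several of the genes lowest in mutant members are known from glia, among them Qk, an RNA-binding protein of myelinating cells, and markers of oligodendrocytes and astrocytes moved with them. Oligodendrocyte markers summed to 58.9 CPM in mutant members and 217 CPM in wt members, with 204 and 235 CPM in the other mutant and wt nuclei. Of 8 such markers 7 were lower and 0 higher in mutant members, and of 5 astrocyte markers 3 were lower and 0 higher, at 118 CPM in mutant members and 224 CPM in wt members. The sum of the oligodendrocyte precursor markers went the other way, at 1456 CPM in mutant members and 1281 CPM in wt members, a fold of 1.14 (1.07 to 1.20), with 0 of 3 lower, and at 1012 and 869 CPM in the other mutant and wt nuclei. Only 3 of these 7 markers had at least 10 UMIs, with Cspg4 and Olig1 at 0 in mutant members and Olig1 at 0 in wt members. All 105 mutant and 97 wt members held a UMI of the list. Whether this sum stands for precursor transcripts was not tested. Microglia markers summed to 31.9 CPM in mutant members and 56.6 CPM in wt members, and endothelial and mural markers to 6.61 and 11.3 CPM, with Cldn5, Rgs5, Vtn and Abcc9 at 0 in mutant members and the last 3 at 0 in wt members. A handful of nuclei carried the oligodendrocyte markers, since 5 wt members held 355 of the 422 oligodendrocyte UMIs of wt members (84.1%). Of the 12 lowest genes, St18, Qk, Slc4a4, Prr5l, Zeb2, Dock1 and Neat1 were no longer 2-fold lower once the members richest in glial markers were left out. St18 and Slc4a4 are themselves among the markers used for that choice, so their change was built in.

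Leaving out the members richest in glial transcripts, 1 mutant and 6 wt nuclei, brought oligodendrocyte markers to 59.3 CPM in mutant members and 58.9 CPM in wt members and astrocyte markers to 118 and 130.1 CPM. These nuclei were picked by the sum of the same glial and vascular markers, so the fall of the markers was built in and tests nothing. The genes lower in mutant members were then 27, of which 22 were among the 39, and the genes higher were 56, of which 46 were among the 52. The log2 ratio of St18 was -0.27 then. Postn (chr3:54361109-54391037), a secreted matrix protein, kept a log2 ratio of -2.0. It had 14 UMIs in 3 mutant members and 113 UMIs in 14 wt members, 8.41 and 58.1 CPM, against 0.973 and 3.19 CPM in the other mutant and wt nuclei. Dnah7a, a dynein heavy chain of cilia, kept -1.71, with 24.6 CPM in mutant members and 88.4 CPM in wt members. Adamtsl1, a secreted matrix protein, kept -1.47, with 73.9 CPM in mutant members and 206 CPM in wt members, against 213 and 896 CPM in the other mutant and wt nuclei. The noncoding C030047K22Rik kept -1.43, with 12 CPM in mutant members and 39.6 CPM in wt members.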

How the data were processed

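Nuclei were profiled with a droplet assay that reads the 3' end of transcripts (10x Genomics, per the labels' protocols). The values, as the authors deposited them, are unnormalised UMI counts of 23481 genes in 5740 nuclei. Cell Ranger 3.1.0 and mm10 are named in the submitters' processing notes, and no source used here states the filter that chose the nuclei. Columns were assigned to PRC2 mutant or wt by their prefix, and 0 value columns went unused. The 8 deposited samples are 4 flow cell lanes of each of 2 libraries, which the table does not keep apart.

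Counts were summed per set of nuclei, scaled to CPM and compared as log2 ratios with 5 CPM added, or as ratios of counts with exact 95% (Clopper-Pearson) intervals. Against a sum of 0, a floor of 3 counts over the set gave a lower bound. A gene was counted at 2-fold with at least 50 UMIs, and list genes at 1.5-fold with at least 10. No test was run, since each genotype has 1 library. Python 3.11.15, numpy 2.4.6, scipy 1.17.1, pandas 2.3.3 and matplotlib 3.10.9 were used, and the scripts were tested on simulated data. Of the symbols, 23058 (98.2%) matched 1 annotated gene (GENCODE M21). Named were the 5 score genes, the 4 gate genes, Eed, the 15 highest and 10 lowest genes of members, the 12 highest and 12 lowest of mutant over wt members, and up to 6 genes per list and comparison by size of ratio, except 1 gene that is not reported here. Ntrk3, Pax2 and the split of members by Hox UMIs were chosen after their values were seen. The members and the 28 gene lists were chosen with earlier results of these data known.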

Additional observations from a re-analysis of the deposited data

Results flagged for a closer look

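Of the 52 genes at least 2-fold higher in mutant than in wt members, 45 were also higher in the mutant among the other gated nuclei. Of the 39 lower genes, 37 were also lower there. Among the 52 and 39 genes, 5 had folds on opposite sides of 1 in members and in the other nuclei, with both counting intervals leaving out 1. The difference between the folds was not tested. Ptprt, a receptor-type tyrosine phosphatase, stood at 91.4 CPM in mutant members and 38.6 CPM in wt members, a fold of 2.37, against a fold of 0.847 in the other nuclei. Gpc3, a cell surface heparan sulfate proteoglycan, had a fold of 3.70 in members (22.8 CPM in the mutant and 6.17 CPM in wt) and 0.772 in the other nuclei. Gabrg1, a subunit of GABA receptors, had a fold of 2.98 in members (33.7 CPM in the mutant and 11.3 CPM in wt) and 0.785 in the other nuclei. Etv1, an ETS transcription factor, had a fold of 2.47 in members (33.1 CPM in the mutant and 13.4 CPM in wt) and 0.506 in the other nuclei. Sox5, a transcription factor of the Sox family, had a fold of 0.351 in members (9.01 CPM in the mutant and 25.7 CPM in wt) and 1.75 in the other nuclei. Counts were few for Gpc3 (38 and 12 UMIs in mutant and wt members) and for Sox5 (15 and 50 UMIs). The spread of these UMIs over nuclei is not given here.

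Nuclei that the gates left out also reached the score of the lowest member. With at least 5000 UMIs but too few dopamine UMIs, 11 of 893 mutant nuclei (1.23%) did so, against 1 of 326 wt nuclei (0.307%). With fewer than 5000 UMIs, 6 of 290 mutant nuclei (2.07%) did so, against 1 of 186 wt nuclei (0.538%). These nuclei were in no comparison, and the difference between the genotypes was not tested.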

How the results depend on the processing

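The share of members in the mutant over that in wt stayed below 1 under every alternative, between 0.378 and 0.649, with no value for the top 5% within each library, where the share is fixed by construction. Scoring after thinning to 5000 UMIs kept 163 of the 202 members (80.7%). The Hox ratio of members to the other mutant nuclei, 0.132, was 0.0721 with the top 2.5% of nuclei, 0.297 with the top 10%, 0.176 with at least 10000 UMIs, 0.0939 with at least 10 gate UMIs per 10000, 0.201 with thinned scoring, 0.163 with the top 5% within each library, 0.172 without Sema5b, 0.187 without Sulf1 and 0.104 in Y nuclei. The developmental regulators' fold, 2.07, was 2.24 with the top 10%, 2.33 within each library, 2.32 without Sulf1, 2.22 in Xist nuclei, 1.65 in Y nuclei and 1.92 as a mean over nuclei. The dopamine genes' fold, 0.720, was 0.679 with the top 10%, 0.823 with at least 10 gate UMIs, 0.687 with thinned scoring, 0.672 within each library, 0.781 in members with at least 5 member neighbours, 0.677 in Xist nuclei, 0.784 in Y nuclei and 0.766 as a mean over nuclei. Counts depended more on the settings. The 52 genes higher in mutant members were 87 with the top 10%, 32 with at least 10 gate UMIs, 32 with thinned scoring, 151 within each library, 34 without Kcnk9, 25 in Y nuclei, 83 with 1 CPM added, 112 with at least 20 UMIs per gene and 171 with no minimum. The 39 lower genes were 63 with the top 10%, 79 with 1 CPM added, 25 with 10 CPM added, 89 with at least 20 UMIs and 111 with no minimum. The 75 genes high in members of both libraries were 49 with the top 10% and 39 in Y nuclei. The 120 low ones were 298 with the top 2.5%, 53 with the top 10%, 233 in members with at least 5 member neighbours and 350 with 1 CPM added. Mutant over wt log2 ratios turned positive for Slc4a4 (0.66), St18 (0.41) and Zeb2 (0.66) with the top 2.5% and for C030047K22Rik in Y nuclei (0.56). List medians changed sign for astrocyte markers with the top 2.5% (0.058) and in Y nuclei (0.36), oligodendrocyte markers with the top 2.5% (0.076), nigral-type genes within each library (0.10), other developmental regulators in Y nuclei (-0.46) and netrin and Slit genes with the top 10% (-0.00747) or without Kcnk9 (-0.0077). Of 1368 values of single genes under an alternative, 4 changed sign and 344 moved beyond their counting error. A change of sign was counted only for genes at least 2-fold in the main setting, and for list medians past a smaller limit. Smaller values that changed sign are not among those given. The cause was not tested in any of these. Leaving out nuclei with both Xist and Y transcripts, or barcodes in both libraries, was chosen after seeing the data. No paired analysis was possible because the table does not keep the numbered flow cell lanes apart, and for the same reason no replicate could be left out. Depth limits genes of few UMIs, since 1 UMI is 0.601 CPM in mutant members and 0.514 CPM in wt members.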
